A study of Homo sapiens with 24 samples.

Results

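The control line of a catabolic SLAM-seq series was compared after 2 h of chase with the end of its labelling pulse, in 6 of the 24 libraries: 3 at 2 h and 3 at 0 h. The libraries were chosen by line and chase time as labelled, with no measured value. Both groups were HEK293, an established human embryonic kidney cell line, carrying a Flag/HA construct (labelled as Flag/HA overexpression). Both had received 100 µM 4-thiouridine (s4U) with 1 µg/mL doxycycline for 24 h in the dark, with new medium every 6 h. The 2 h cells were then washed with PBS and kept with 10 mM uridine for 2 h, and the 0 h cells were harvested at the end of the pulse. Beside them stand libraries of a line overexpressing ZC3H7B, a CCCH zinc finger protein (Flag-HA/ZC3H7B-Overexpression, ZC3H7B-OE below), treated alike, with 3 at 2 h and 3 at 0 h. The groups used here hold no cells kept on s4U for the same 2 h, so loss of s4U, the wash, new medium, the uridine and time cannot be told apart. The labels call the libraries replicates without saying that they were separate cultures, so p-values measure only how far these samples spread, and that spread may be technical.

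In SLAM-seq, living cells build s4U into the RNA they make, a later alkylation step makes s4U read as C, and T>C conversions in a read mark RNA made during the pulse. A chase with excess uridine competes out the s4U that is left. Fresh serum and medium are known to switch on immediate early genes, whose mRNAs are short-lived, while shortage of amino acids or endoplasmic reticulum stress acts through the transcription factor ATF4, and thiol nucleosides at high dose are known to disturb nucleolar RNA synthesis.

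The 6 libraries held 1502068 to 2026269 reads per library, of which 1123942 to 1579744 carried T>C conversions. Control 0 h replicate 3 stood apart from its group. It had reads in 11032 of the 19692 entries of the table, where the other 23 libraries had 12005 to 13201, and its 10 most abundant entries took 10.7% of its reads, where the others had 3.56% to 7.61%. Its counts differed from those of control 0 h replicates 1 and 2 by a chi-square of 30.4 and 27.7 per degree of freedom, while those 2 libraries differed from each other by 2.62, so these were distinct libraries. Fold changes that leaving it out moved by over 1.5 times, and calls that were lost, are therefore given with their value without control 0 h replicate 3, as are many of the others. Of the HEK293 markers, INA lay at 102 to 173 CPM at 2 h and 113 to 125 CPM at 0 h, LIN28B, KRT8 and KRT18 were detected, VIM had 20 reads and NEFM none in the 6 libraries. PAX2, another of these markers, had 2 reads. Of the markers of other cells, COL1A2, DCN, LUM, PTPRC, CD3E, KRT14, CDH1, CDH5 and VWF were at 0 in all 6, while KRT10 had 2159 reads, CD68 1091, EPCAM 444, FCER1G 55, COL1A1 17, CD79A 13 and COL3A1 11. Levels are CPM (counts scaled to library size with TMM factors). They are relative levels, not plain shares of a library, and fewer cells or less RNA per cell cannot be told apart from them. The TMM factor of control 0 h replicate 3 was 0.726, where the other 23 libraries had 0.926 to 1.08. Counts are divided by this factor, so the CPM of control 0 h replicate 3 lie above its plain shares of reads.

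Of 10038 entries tested with edgeR's quasi-likelihood test, 1355 (13.5%) were higher at 2 h and 1101 (11.0%) were lower at a Benjamini-Hochberg adjusted p under 0.05, and 731 and 531 of these changed at least 2-fold. The 3 libraries at 2 h all lay above the 3 at 0 h for 1219 of the higher genes, and all lay below them for 907 of the lower ones. Over all tested entries, groups that did not overlap made up 17.4% with higher and 12.9% with lower values at 2 h. The median log2 fold change was 1.06 among higher, −0.98 among lower and 0.05 over all tested genes. Without control 0 h replicate 3, 1295 of 10526 entries (12.3%) were higher and 645 (6.13%) lower. Of the genes first called higher, 80.8% were called again without that library, and of those called lower 49.9%, so the falls rest on it far more than the rises. Fitted on the 6 libraries alone, 439 were higher and 150 lower, and without control 2 h replicate 3, in the fit of all libraries, 858 were higher. Counts of list members below stand beside 13.5% higher and 11.0% lower over all tested entries, and beside 12.3% and 6.13% where that library was left out. Calls also varied with transcript length, as described below, and the lists were not matched for length.

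**Figure D1:**
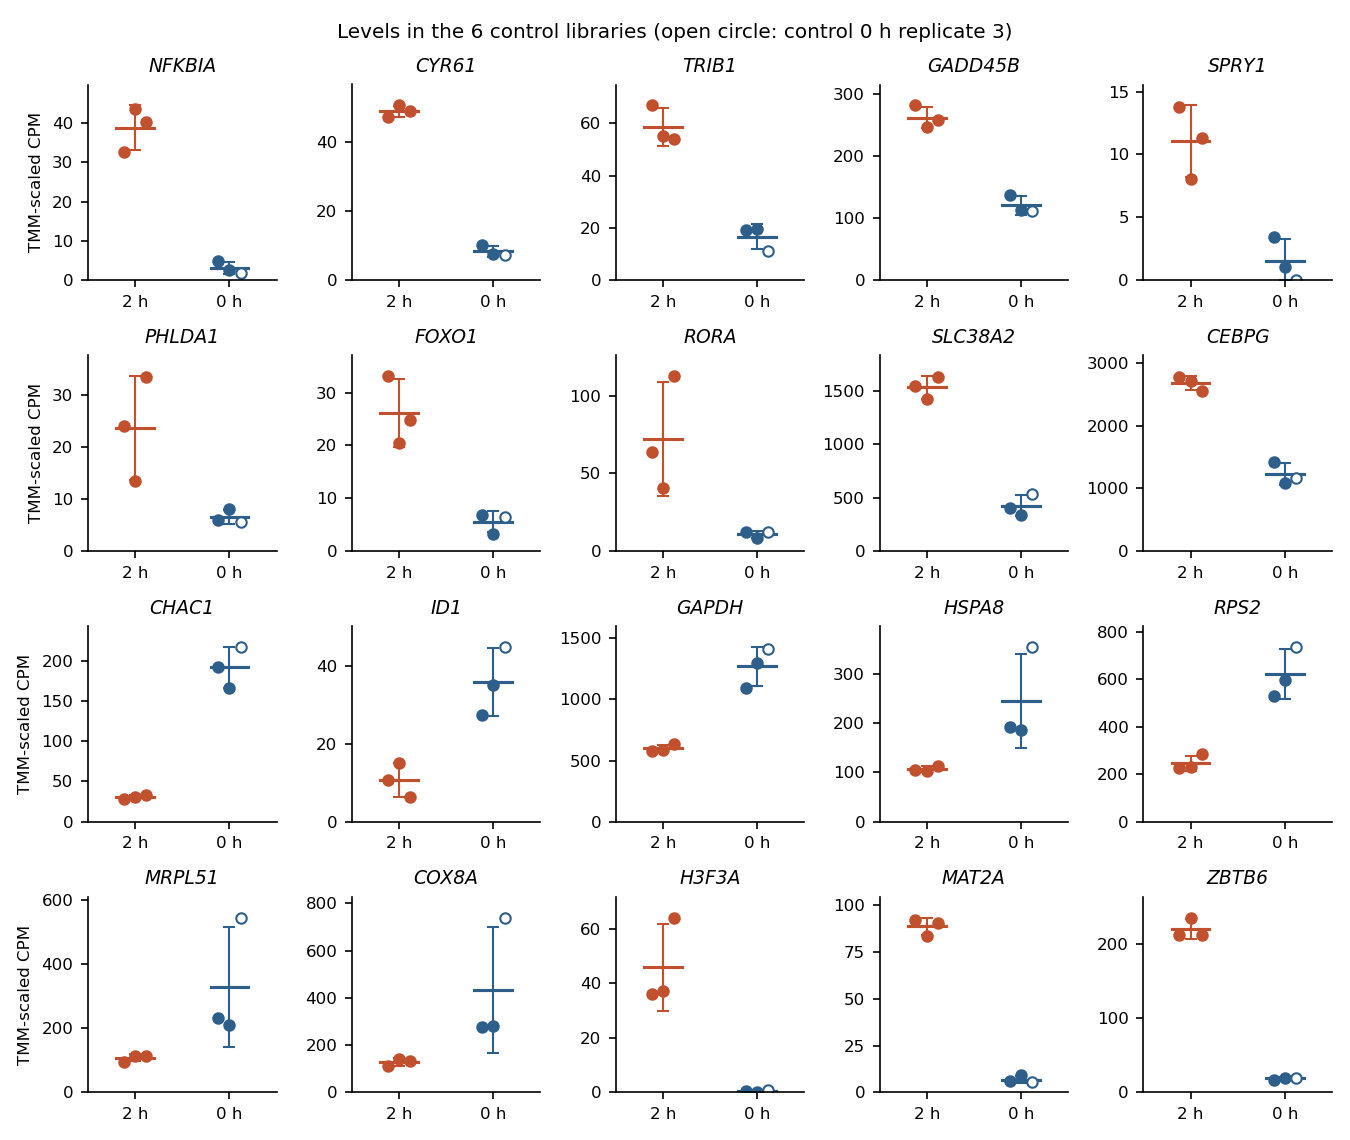
Levels of 20 genes in TMM-scaled CPM in each control library, 2 h on the left and 0 h on the right of each panel; points are libraries (open: control 0 h replicate 3), the long bar the mean and the whiskers the SD (n = 3, cut at 0). In every panel shown the 3 libraries at 2 h lie on one side of the 3 at 0 h, and for HSPA8, MRPL51 and COX8A control 0 h replicate 3 is far above the other libraries.

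The 12 largest rises were taken from entries of 1 gene called both with and without control 0 h replicate 3. Groups also had not to overlap, and log2 CPM had to average at least 3 over the 24 libraries. These 12 were H3F3A, MCTP1, ENO4, MAT2A, RPS24, SEC24D, ZBTB6, SLC25A36, NFKBIA, FMN2, REV3L and CEP85L. H3F3A, which encodes the replication-independent histone H3.3, had 36.2, 37.2 and 64.0 CPM at 2 h, against 0.490, 0 and 0.917 CPM at 0 h. It was nearly absent from the 0 h libraries: 259 reads over the group at 2 h stood against 2 at 0 h, a ratio of 114 with a 95% counting interval of 31.1 to 943. MAT2A makes S-adenosylmethionine, the methyl donor of the cell, and its mRNA is known to be spliced and degraded according to the supply of that product. Its level was 92.2, 83.5 and 90.4 CPM at 2 h, against 5.88, 9.21 and 5.50 CPM at 0 h. The groups were far apart and tight, at a log2 fold change of 3.65 (edgeR adjusted p = 6.33e-13, SE 0.25), and 3.56 without control 0 h replicate 3.

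ZBTB6, a zinc finger transcription factor with a BTB domain, had 212, 235 and 211 CPM at 2 h, against 17.1, 20.0 and 19.3 CPM at 0 h. No library of one time came near the other time, and the log2 fold change was 3.55 (edgeR adjusted p = 3.74e-15, SE 0.19; 3.56 without control 0 h replicate 3). CEP85L, a centrosomal protein gene, had 49.9, 41.5 and 66.7 CPM at 2 h, against 5.39, 5.96 and 2.75 CPM at 0 h, a log2 fold change of 3.39 (3.21 without control 0 h replicate 3). SLC25A36, a mitochondrial carrier of pyrimidine nucleotides, had 21.9, 14.0 and 35.0 CPM at 2 h, against 1.47, 2.71 and 1.83 CPM at 0 h. It rose by 3.52 on the log2 scale (3.48 without control 0 h replicate 3), with control 2 h replicate 3 the highest. The same library was the highest for MCTP1, which had 9.17, 7.00 and 29.6 CPM at 2 h, against 0.979, 1.08 and 0 CPM at 0 h. REV3L, the catalytic subunit of DNA polymerase zeta, rose by 3.40 (4.44 without control 0 h replicate 3), and FMN2, an actin-nucleating formin, by 3.42 (3.06). ENO4 and SEC24D had 1 and 2 reads over the 0 h group. Their ratios were 19.3 (counting interval 3.12 to 796) from 22 reads at 2 h and 13.6 (3.46 to 117) from 31 reads at 2 h. RPS24, a ribosomal protein, rose by 3.65 on the log2 scale (4.26 without control 0 h replicate 3), with 61 reads over the 2 h group and 4 over the 0 h group. H3F3A and RPS24 have close copies in the genome, and how reads of copies were counted is not given, so their levels are uncertain.

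Among all called entries the largest fall was by 5.59 on the log2 scale. Under the same rule as for the rises, the 12 largest falls were led by CHAC1, an enzyme that degrades glutathione and is a known ATF4 target. It had 27.5, 31.2 and 33.4 CPM at 2 h, against 192, 166 and 216 CPM at 0 h. The groups were well separated without any help from control 0 h replicate 3, and the log2 fold change was −2.64 (edgeR adjusted p = 4.67e-12, SE 0.20) and −2.55 without it. The redox proteins PRDX5 and TXN also kept most of their fall without that library, PRDX5 at −2.31 with and −2.25 without it, and TXN at −2.46 with and −1.65 without it. PRDX5, a peroxiredoxin, was a low gene with 2.04, 3.23 and 3.23 CPM at 2 h, against 14.7, 12.5 and 15.6 CPM at 0 h. For the other 9 the drop shrank by more than 1.5 times when control 0 h replicate 3 was left out: ITGAE (an integrin chain), ATP5EP2, NDUFA4, RPS27L, RPS3A, COX6A1P2, SSBP1, SNRPG and ROMO1 lay between −2.52 and −2.19 with it and between −1.51 and −0.99 without it. NDUFA4, a subunit of respiratory complex IV, had 12.2, 16.2 and 16.1 CPM at 2 h, against 37.7, 37.9 and 161 CPM at 0 h, the last in control 0 h replicate 3. ATP5EP2 and COX6A1P2 are pseudogene entries of an ATP synthase and a cytochrome c oxidase subunit, so their reads may belong to the parent genes.

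Immediate early genes, which answer growth signals without new protein, were more often higher than lower at 2 h. Of 36 tested, 10 were higher and 0 lower (13.5% and 11.0% of all tested entries), with a median log2 fold change of 0.24 beside 0.05 over all. Without control 0 h replicate 3 the counts were 10 higher and 2 lower and the median was 0.07. NFKBIA encodes the inhibitor that holds NF-kB in the cytoplasm and is itself an NF-kB target. It had 32.6, 43.6 and 40.4 CPM at 2 h, against 4.90, 2.71 and 1.83 CPM at 0 h. All 3 libraries at 2 h were several times above every library at 0 h, and the log2 fold change was 3.50 (edgeR adjusted p = 1.9e-09, SE 0.34; 3.31 without control 0 h replicate 3). CYR61, a secreted matrix protein controlled by YAP and SRF, had 47.4, 50.6 and 49.0 CPM at 2 h, against 10.3, 7.59 and 7.34 CPM at 0 h. Its groups did not overlap and its log2 fold change was 2.51 (edgeR adjusted p = 1.42e-08, SE 0.27; 2.44 without control 0 h replicate 3). TRIB1, a pseudokinase that steers protein degradation, had 66.8, 54.9 and 53.8 CPM at 2 h, against 19.1, 19.5 and 11.0 CPM at 0 h, a log2 fold change of 1.77 (1.60 without control 0 h replicate 3). GADD45B, a stress and growth arrest gene, rose by 1.11 to 281, 247 and 257 CPM at 2 h, against 138, 112 and 111 CPM at 0 h.

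Several classical members of the list did not pass the test. EGR1 had 114, 95.3 and 88.8 CPM at 2 h, against 91.6, 94.3 and 49.5 CPM at 0 h, a log2 fold change of 0.32 (edgeR adjusted p = 0.277) with overlapping groups. JUN, at −0.14 (edgeR adjusted p = 0.438), IER2, at −0.07 (adjusted p = 0.776), and MYC, at −0.14 (adjusted p = 0.789), also overlapped between the times, and FOS did not pass the filter on low counts. Members with a rise included the Krüppel-like factors KLF6 and KLF10, at 1.13 (edgeR adjusted p = 4.35e-06) and 1.35 (adjusted p = 2.53e-05), and SGK1, a serum-regulated kinase, at 1.70. EGR1, JUN, IER2, MYC, FOS, KLF6, KLF10 and SGK1 were picked out here after their values were seen.

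Of 13 feedback genes of ERK signalling 6 were higher, 0 were lower and 7 did not pass the test, with a median of 0.53 (5 of 13 and 0.38 without control 0 h replicate 3). SPRY2 encodes a Sprouty protein that damps receptor tyrosine kinase signals. It had 22.9, 28.0 and 22.6 CPM at 2 h, against 8.81, 5.42 and 12.8 CPM at 0 h, a log2 fold change of 1.51 (edgeR adjusted p = 0.000112, SE 0.28; 1.76 without control 0 h replicate 3). SPRY1, its relative, rose by 2.61 (2.24 without that library) to 13.8, 8.08 and 11.3 CPM at 2 h, against 3.43, 1.08 and 0 CPM at 0 h. PHLDA1, an early gene induced by growth factors, rose by 1.83, and ETV5, an ETS transcription factor downstream of ERK, by 0.47, its lowest library at 2 h having 243 CPM and its highest at 0 h 224 CPM. The ETV5 call was lost in 5 of the other settings. DUSP6, the ERK phosphatase named here after its value was seen, had 14.3, 14.0 and 14.5 CPM at 2 h, against 10.8, 12.5 and 11.9 CPM at 0 h, at 0.29 and an edgeR adjusted p of 0.58.

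The ID genes went the other way. They encode inhibitors of helix-loop-helix transcription factors and are direct targets of BMP signalling. ID1 had 10.7, 15.1 and 6.46 CPM at 2 h, against 27.4, 35.2 and 44.9 CPM at 0 h, a log2 fold change of −1.71 (edgeR adjusted p = 0.000205, SE 0.33; −1.54 without control 0 h replicate 3). ID3 had 66.3, 60.3 and 58.1 CPM at 2 h, against 104, 114 and 247 CPM at 0 h, at −1.31 with and −0.82 without that library. ID4 fell by 1.24 on the log2 scale to 6.63, 8.62 and 5.38 CPM at 2 h, against 14.2, 19.0 and 15.6 CPM at 0 h. Only 2 of its 81 reads at 0 h were labelled (2.47%), against 76.5% of ID1 reads and 86.3% of ID3 reads. The ID4 call was lost in 5 of the other settings, and in ZC3H7B-OE ID4 was at −0.81 (edgeR adjusted p = 0.271). ID2, named after its value was seen, had 2.55, 2.69 and 3.77 CPM at 2 h, against 1.47, 0.542 and 3.67 CPM at 0 h, with overlap and an edgeR adjusted p of 0.56. In the list of 9 ID and BMP or TGF-beta feedback genes ID1, ID3 and ID4 were the falls, and SKI, a repressor of SMAD proteins, was the 1 rise at 0.72 (0.40 without control 0 h replicate 3). The SKI call was lost in 4 of the other settings.

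Targets of SRF and YAP were split, with 4 of 15 higher and 2 lower. LATS2, a kinase of the Hippo pathway and itself a YAP target, had 28.0, 34.5 and 38.7 CPM at 2 h, against 6.86, 7.59 and 10.1 CPM at 0 h, a log2 fold change of 2.08 (edgeR adjusted p = 1.48e-05, SE 0.33; 2.22 without control 0 h replicate 3). AMOTL1, an angiomotin, rose by 0.68, while ACTG1, cytoplasmic gamma actin, fell to 2349.5, 2517 and 2265 CPM at 2 h, against 3118, 3194 and 3618 CPM at 0 h. That is −0.48 for ACTG1, small but with no overlap between the times (−0.41 without control 0 h replicate 3).

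Amino acid and stress genes downstream of ATF4 split into 8 higher and 7 lower of 37, with a median of −0.07 (8, 7 and −0.01 without control 0 h replicate 3). The amino acid transporter SLC38A2 had 1545, 1421 and 1630.5 CPM at 2 h, against 398, 341 and 532 CPM at 0 h. Every library at 2 h was far above every library at 0 h, with a log2 fold change of 1.86 (edgeR adjusted p = 3.86e-13, SE 0.12) and 2.05 without control 0 h replicate 3. CEBPG, a bZIP partner of ATF4, had 2773, 2710.0 and 2559.8 CPM at 2 h, against 1422, 1089 and 1161 CPM at 0 h. It rose by 1.13 (edgeR adjusted p = 4.03e-09, SE 0.11), again with no overlap. SLC7A11, the cystine importer that feeds glutathione synthesis, rose by 1.42 to 138, 112 and 225 CPM at 2 h, against 68.6, 60.7 and 44.9 CPM at 0 h.

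Among the falls were CHAC1, described above, and the following genes, picked out after their values were seen. ATF4 had 23.4, 24.2 and 31.2 CPM at 2 h, against 44.6, 48.2 and 41.3 CPM at 0 h, a log2 fold change of −0.77 (edgeR adjusted p = 0.0298, SE 0.26; −0.82 without control 0 h replicate 3). DDIT3, the stress factor CHOP, fell by 0.66 (edgeR adjusted p = 0.00167; −0.44 without control 0 h replicate 3). CEBPB, a bZIP factor, was at −1.39 (−0.95) and ASNS, asparagine synthetase, at −1.11 (−0.44 without control 0 h replicate 3), and control 0 h replicate 3 was the highest library for both. TRIB3, an ATF4 target that feeds back on it, lay at 672, 642 and 581 CPM at 2 h, against 599, 515 and 650 CPM at 0 h, with overlap and an edgeR adjusted p of 0.628. So the list held rises and falls, and among its bZIP factors CEBPG rose while ATF4 and CEBPB fell.

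FOXO factors are transcription factors held inactive by insulin signalling, and their targets restrain growth. Of 14 FOXO and insulin pathway genes 5 were higher and 0 lower, with a median of 0.60 (6, 0 and 0.69 without control 0 h replicate 3). FOXO1 itself had 33.1, 20.5 and 24.8 CPM at 2 h, against 6.86, 3.25 and 6.42 CPM at 0 h, a log2 fold change of 2.26 (edgeR adjusted p = 1.8e-06, SE 0.31). IRS2, an adaptor of the insulin receptor, rose by 0.84 and SESN3, a sestrin that restrains mTORC1, by 0.52. TXNIP, which inhibits thioredoxin and glucose uptake, had 213, 230.5 and 183 CPM at 2 h, against 109.7, 102 and 165 CPM at 0 h. TXNIP and its relative ARRDC4 are both targets of the glucose-sensing MondoA-MLX factors of the MYC-MAX network. ARRDC4 had 117, 126 and 115 CPM at 2 h, against 29.9, 25.5 and 33.0 CPM at 0 h, and rose by 2.03 (edgeR adjusted p = 8.28e-11, SE 0.17; 2.10 without control 0 h replicate 3). MXD3, a MAX partner in that network, fell by 0.76 on the log2 scale. Of the 11 network genes 2 were higher and 1 lower.

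Of 13 clock genes 5 were higher and 0 lower, with a median of 0.75 (4, 0 and 0.60 without control 0 h replicate 3, and a median of −0.08 in ZC3H7B-OE). RORA, a nuclear receptor that activates BMAL1, had 63.7, 40.4 and 112 CPM at 2 h, against 12.2, 8.13 and 11.9 CPM at 0 h, a log2 fold change of 2.75 (edgeR adjusted p = 9.45e-08, SE 0.31; 2.80 without control 0 h replicate 3). The spread at 2 h was wide, with control 2 h replicate 3 highest, but its lowest library was above every library at 0 h. CLOCK, the partner of BMAL1, had 94.8, 93.7 and 124 CPM at 2 h, against 36.7, 35.2 and 36.7 CPM at 0 h, a log2 fold change of 1.53. TEF, a PAR bZIP factor, rose by 0.75. BHLHE40, a repressor shared with the hypoxia list, was at 0.95 and lost its call without control 0 h replicate 3 (0.74, edgeR adjusted p = 0.0526).

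**Figure D2:**
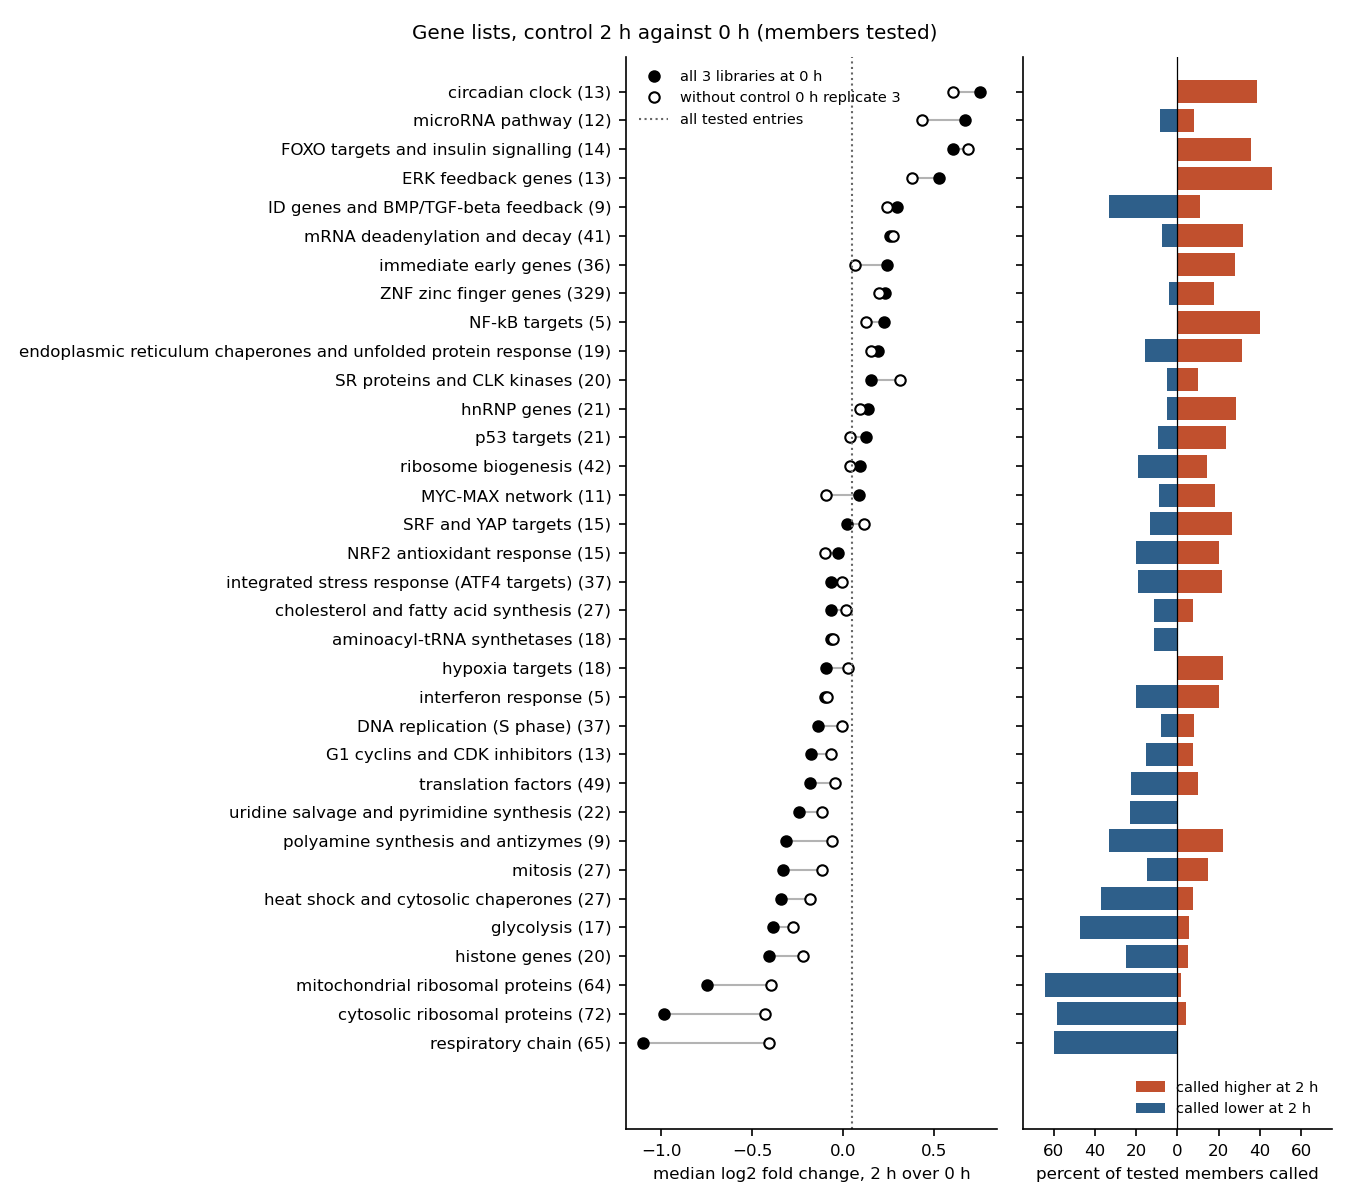
Left, median log2 fold change (2 h over 0 h) of the tested members of each gene list, with their number in brackets; filled points use all 3 libraries at 0 h and open points leave out control 0 h replicate 3. Right, percent of the tested members called higher (right) and lower (left) at 2 h; respiratory chain, ribosomal protein and mitochondrial ribosomal protein genes had 39 of 65, 42 of 72 and 41 of 64 members lower and moved most towards 0 without that library.

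Cytosolic chaperones, which fold new proteins and answer heat shock, gave 10 of 27 lower, 2 higher and 15 that did not pass, with a median of −0.34. Without control 0 h replicate 3 the counts were 4 lower and 3 higher and the median −0.19. HSPA8, the constitutive HSP70, had 104.99, 103 and 114 CPM at 2 h, against 192, 187 and 355 CPM at 0 h, a log2 fold change of −1.17 (edgeR adjusted p = 2.66e-05, SE 0.19; −0.82 without control 0 h replicate 3). TCP1, a subunit of the chaperonin that folds actin and tubulin, was at −0.95 with and −0.47 without it. The transcription factor HSF2 rose by 1.60 to 33.1, 20.5 and 34.4 CPM at 2 h, against 12.2, 5.96 and 11.0 CPM at 0 h, and the J-protein DNAJB4 by 1.29.

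Of 19 endoplasmic reticulum genes 6 were higher and 3 lower, with a median of 0.19 (6, 2 and 0.15 without control 0 h replicate 3). ERN1, the IRE1 stress sensor, had 33.1, 26.9 and 43.6 CPM at 2 h, against 13.7, 15.2 and 11.9 CPM at 0 h, a log2 fold change of 1.32 (edgeR adjusted p = 3.37e-05, SE 0.22). DNAJB9, a luminal co-chaperone induced by IRE1, rose by 1.21, SEL1L, a scaffold of the degradation machinery of that organelle, by 1.11, and DNAJC3, an inhibitor of the kinase PERK, by 0.66. The best known marker of that response, HSPA5 (BiP), named after its value was seen, had 145, 121 and 106 CPM at 2 h, against 110, 80.2 and 137 CPM at 0 h, with overlap and an edgeR adjusted p of 0.476.

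In the antioxidant list 3 of 15 were higher and 3 lower. PRDX1, the major cytosolic peroxiredoxin, fell by 1.01 on the log2 scale (−0.68 without control 0 h replicate 3). FTL, the ferritin light chain, had 29.6, 35.5 and 42.0 CPM at 2 h, against 70.0, 70.4 and 60.5 CPM at 0 h, at −0.92. GCLC, which starts glutathione synthesis, rose by 1.15 to 19.9, 14.5 and 26.9 CPM at 2 h, against 9.30, 10.3 and 7.34 CPM at 0 h. The GCLC call was lost in 5 of the other settings. Among 21 p53 targets 5 were higher and 2 lower (6 and 0 without control 0 h replicate 3). They included GADD45A, a growth arrest gene, with 185, 134 and 147 CPM at 2 h, against 72.5, 68.8 and 96.3 CPM at 0 h (0.99), the death receptor TNFRSF10B (0.71) and the RNA-binding protein ZMAT3 (0.76). CMBL, a hydrolase, lay at −0.71 and lost its call without control 0 h replicate 3 (−0.34, edgeR adjusted p = 0.226).

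Of 17 glycolytic enzymes 8 were lower, 1 was higher and 8 did not pass, with a median of −0.39 (7, 0 and −0.28 without control 0 h replicate 3). The summed level of the list was 11831, 13074 and 10772 CPM at 2 h, against 17170, 16427 and 24348 CPM at 0 h. GAPDH had 581, 586 and 635 CPM at 2 h, against 1097, 1303 and 1411 CPM at 0 h, so that its highest library at 2 h was below its lowest at 0 h. Its log2 fold change was −1.08 (edgeR adjusted p = 5.32e-06, SE 0.16) and it was called without control 0 h replicate 3 as well (edgeR adjusted p = 0.000239). ENO1, enolase, had 1666, 1887 and 1578 CPM at 2 h, against 2811, 2558 and 3699 CPM at 0 h, at −0.82. TPI1, triose phosphate isomerase, and ALDOA, aldolase, were at −0.75 and −0.77, and ALDOA at −0.79 without control 0 h replicate 3. HK2, the hexokinase that starts the pathway, was the exception at 0.68, a call lost without that library (0.46, edgeR adjusted p = 0.0567).

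Genes of uridine salvage and pyrimidine synthesis, which handle the chase nucleoside, gave 0 higher and 5 lower of 22. Without control 0 h replicate 3 this became 1 higher and 1 lower, and the median was −0.12, where it is −0.24 with that library. NME1, a nucleoside diphosphate kinase, had 1252, 1550.5 and 1269 CPM at 2 h, against 1939, 2111 and 6519 CPM at 0 h, and was still lower without that library (−0.58, edgeR adjusted p = 0.000149). Thymidylate synthase TYMS, thymidine kinase TK1 and the mitochondrial kinase AK3 were at −0.65, −0.58 and −0.75 with that library and lost their calls without it, at −0.29, −0.26 and −0.25 (edgeR adjusted p of 0.112, 0.168 and 0.232). UCK2, which phosphorylates uridine, had 31.1, 42.0 and 26.9 CPM at 2 h, against 26.0, 20.0 and 26.6 CPM at 0 h, and SLC29A1, a nucleoside transporter, had 55.6, 56.5 and 43.0 CPM at 2 h, against 51.4, 41.7 and 34.8 CPM at 0 h. Neither UCK2 (0.47, edgeR adjusted p = 0.183) nor SLC29A1 (0.26, adjusted p = 0.42) passed the test, and both were named after their values were seen.

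In sterol and fatty acid synthesis 2 of 27 were higher and 3 lower. HMGCS1, HMG-CoA synthase, had 60.6, 50.6 and 66.7 CPM at 2 h, against 26.4, 21.1 and 29.3 CPM at 0 h (1.23). The isomerase EBP and the thiolase ACAT2 fell by 0.94 and 0.91 (−0.54 and −0.34 without control 0 h replicate 3). Of 9 polyamine genes 2 were higher and 3 lower (2 and 2 without control 0 h replicate 3). AZIN1, the antizyme inhibitor, had 222, 226 and 237 CPM at 2 h, against 83.3, 106 and 186 CPM at 0 h (0.90), and SAT1, which breaks polyamines down, rose by 0.55. The SAT1 call was lost in 8 of the other settings. OAZ1, the antizyme, fell by 0.69 (−0.38 without that library), and the fall of spermine synthase SMS lost its call (−0.66, edgeR adjusted p = 0.0613). Hypoxia targets gave 4 higher and 0 lower of 18, among them the oxygen sensor EGLN1 (0.79) and the oxidase ERO1L (0.61). The ERO1L call was lost in 5 of the other settings.

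The largest coordinated falls were in short, abundant mRNAs of the ribosome and the mitochondrion, and they are also where control 0 h replicate 3 weighs most. Of 72 cytosolic ribosomal protein genes 42 were lower and 3 higher, with a median of −0.99, and without that library 24 were lower and 4 higher, with a median of −0.43. The summed level of these genes was 13939, 14989 and 14586 CPM at 2 h, against 18536, 19826 and 45928 CPM at 0 h, the last being control 0 h replicate 3. All 3 libraries at 2 h lay below control 0 h replicates 1 and 2 as well. RPS2 had 226, 229 and 284 CPM at 2 h, against 530.4, 596 and 736 CPM at 0 h, a log2 fold change of −1.33 (edgeR adjusted p = 3.34e-06, SE 0.19; −1.20 without control 0 h replicate 3). RPL13 was at −1.17 (−1.04) and the stalk protein RPLP2 at −2.05 (−1.90), each with the value without that library in brackets. The 3 higher ones were RPS24, RPL36A (3.14) and the ribosomal-protein-like RPL7L1 (2.23), the last pair named after their values were seen, and RPL36A lost its call without that library (2.81, edgeR adjusted p = 0.0512).

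Respiratory chain genes had 39 of 65 lower and 0 higher, with a median of −1.10, and 23 lower and a median of −0.41 without control 0 h replicate 3. Their summed level was 4792, 5227 and 4937 CPM at 2 h, against 6745, 6861 and 16670 CPM at 0 h. ATP5G2, the ring subunit of ATP synthase, had 62.7, 78.6 and 96.3 CPM at 2 h, against 176, 169 and 312 CPM at 0 h (−1.45, SE 0.22, edgeR adjusted p = 7.03e-06; −1.13 without that library). NDUFB7 of complex I was at −1.66 (−1.27), COX5B of complex IV at −1.62 (−1.10) and COX8A of complex IV at −1.73 (−1.11). Mitochondrial ribosomal proteins gave 41 of 64 lower and 1 higher, with a median of −0.75, and 20 lower, 1 higher and −0.40 without that library. MRPS34 is a member in which control 0 h replicate 3 matched its group, with 214, 227 and 204 CPM at 2 h, against 352, 359 and 348 CPM at 0 h. Its log2 fold change was −0.72 with and −0.73 without that library. MRPL51 fell by 1.59 (−1.04), MRPL14 by 1.65 (−1.26) and MRPS18A by 0.98 (−0.67), with the value without control 0 h replicate 3 in brackets.

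Translation factors divided by gene. Of 49 tested 5 were higher and 11 lower, with a median of −0.18, which became 6 higher, 5 lower and −0.04 without control 0 h replicate 3. EIF3A, the scaffold of initiation factor eIF3, had 86.6, 96.9 and 94.2 CPM at 2 h, against 40.2, 33.6 and 26.6 CPM at 0 h, a log2 fold change of 1.44 (edgeR adjusted p = 3.37e-08, SE 0.16). EIF3H, another subunit of the same complex, had 69.3, 67.9 and 66.7 CPM at 2 h, against 114, 106 and 220.1 CPM at 0 h, at −1.09 (−0.70 without control 0 h replicate 3). EIF6, which keeps ribosomal subunits apart, was at −0.97 and EIF4EBP1, the translation repressor under mTORC1, at −0.80 (−0.70 and −0.48 without that library). Of 18 aminoacyl-tRNA synthetases 0 were higher and 2 lower, SARS at −0.61 and FARSA at −0.60, of which FARSA lost its call without that library (−0.46, edgeR adjusted p = 0.106). Histone genes, of which 1 of 20 was higher and 5 lower, had 2 lower calls without it, those of HIST1H2BK (−1.20 with and −0.53 without it) and HIST3H2A (−1.41 and −0.62), and neither HIST2H3C (0.56, edgeR adjusted p = 0.115) nor HIST1H2AG (−0.37, adjusted p = 0.349) passed then.

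Ribosome biogenesis, the list that a disturbance of the nucleolus would touch, was divided, with 6 of 42 higher and 8 lower and a median of 0.09. DDX21, a nucleolar helicase, had 944, 951 and 909 CPM at 2 h, against 564, 497 and 546 CPM at 0 h. The groups were tight and apart, with a log2 fold change of 0.80 (edgeR adjusted p = 1.71e-06, SE 0.11) and 0.81 without control 0 h replicate 3. RRN3, the initiation factor of RNA polymerase I, had 282, 269.8 and 265 CPM at 2 h, against 181, 157 and 186 CPM at 0 h (0.64). In contrast POLR1C and POLR1D, subunits shared by RNA polymerases I and III, were at −1.17 and −1.64 (−0.95 and −0.88 without that library).

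Of 41 genes of mRNA decay itself 13 were higher and 3 lower, with a median of 0.26 (13, 2 and 0.28 without control 0 h replicate 3). In ZC3H7B-OE 11 were higher and 4 lower, with a median of 0.01. Their median transcript length was 4315.5 bases, beside 3251 over all tested genes, and the part of length in these counts was not tested. The rises included deadenylase subunits. CNOT6L, a catalytic subunit of CCR4-NOT, had 61.7, 65.7 and 70.0 CPM at 2 h, against 17.6, 26.0 and 12.8 CPM at 0 h, a log2 fold change of 1.76 (edgeR adjusted p = 1.65e-07, SE 0.21). CNOT6, its paralog, rose by 0.86 to 153, 148 and 177 CPM at 2 h, against 91.1, 90.5 and 81.6 CPM at 0 h. PAN3, the adaptor of the PAN2 deadenylase, rose by 1.31, and DDX6, a helicase of translational repression and decapping, by 0.99. XRN1, the cytoplasmic 5′ to 3′ exonuclease, named after its value was seen, rose by 1.76. DICER1, the microRNA-processing enzyme, had 60.6, 43.6 and 93.1 CPM at 2 h, against 23.0, 19.0 and 11.9 CPM at 0 h (1.81), while its partner TARBP2 lay at −0.85 and lost its call without control 0 h replicate 3 (−0.51, edgeR adjusted p = 0.0537).

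ZNF zinc finger genes, many of them repressors with short-lived mRNAs, gave 59 higher and 13 lower of 329, with a median of 0.23 (60, 11 and 0.20 without control 0 h replicate 3). ZNF507 had 393, 349 and 489.7 CPM at 2 h, against 121, 108 and 98.1 CPM at 0 h, a log2 fold change of 1.90 (edgeR adjusted p = 4.05e-12, SE 0.14). ZNF567 rose by 2.86 (3.597 without control 0 h replicate 3) to 61.2, 58.2 and 69.4 CPM at 2 h, against 4.90, 5.42 and 19.3 CPM at 0 h, and ZNF654 and ZNF367 rose by 2.12 and 1.67. Among 20 SR proteins and CLK kinases, the kinases CLK1 (1.83) and CLK4 (1.01), which phosphorylate SR proteins, were the rises, and the SR protein SRSF7 was the fall, a call lost without control 0 h replicate 3 (−0.19, edgeR adjusted p = 0.376). Of 21 hnRNP genes 6 were higher and 1 lower, with HNRNPH2 at 0.85, HNRNPDL at 0.55, HNRNPA1 at 0.40 and HNRNPC at −1.13 (−0.40 without that library).

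Cell cycle lists showed no common direction, with 3 higher and 3 lower of 37 replication genes, 4 and 4 of 27 mitotic genes and 1 and 2 of 13 G1 genes. KIF11, the mitotic kinesin Eg5, had 92.8, 123 and 126 CPM at 2 h, against 47.0, 46.6 and 43.1 CPM at 0 h (1.32, SE 0.16, edgeR adjusted p = 2.79e-07), and TOP2A, topoisomerase II alpha, rose by 0.77. AURKB, a mitotic kinase, had 99.9, 113 and 92.0 CPM at 2 h, against 183, 157 and 286 CPM at 0 h (−1.02), and CKS2, a CDK-binding protein, was at −1.89 (−0.91 without control 0 h replicate 3). In the replication list MCM10 (0.70) and RFC1 (1.01) rose and GINS2 (−1.07, and −0.51 without that library) and RFC2 (−0.64) fell. CDK6 rose by 0.49, while its relative CDK4 and the CDK inhibitor gene CDKN2A fell by 0.82 and 0.95 (−0.49 and −0.70 without that library). Of the interferon list IFIT5 rose by 1.87 and IFI6 was at −1.26, of 5 tested. TNFAIP3, an NF-kB feedback enzyme, lay at 0.91 and lost its call without control 0 h replicate 3 (0.70, edgeR adjusted p = 0.151).

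ZC3H7B and its relative ZC3H7A are CCCH zinc finger genes, and the control line carries no ZC3H7B construct by its labels. ZC3H7A had 53.5, 45.8 and 60.8 CPM at 2 h, against 35.3, 36.3 and 26.6 CPM at 0 h, a log2 fold change of 0.68 (edgeR adjusted p = 0.0112, SE 0.20; 0.57 without control 0 h replicate 3). ZC3H7B had 374, 376 and 283 CPM at 2 h, against 347, 358 and 192 CPM at 0 h. Its groups overlapped and it did not pass the test (0.19, edgeR adjusted p = 0.404).

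The conversions give a readout that the comparison of all reads did not use. Over whole libraries the labelled share hardly moved: it was 75.7% ± 1.82 at 2 h and 76.7% ± 1.67 at 0 h (SD, n = 3 each), a difference of −0.996 points with a two-sided exact permutation p of 0.5, where 0.1 is the smallest possible. Gene by gene, falls outnumbered gains. The odds of a labelled against an unlabelled read were lower at 2 h for 2208 of 9895 entries (22.3%) and higher for 99 (1.0%), with a median log2 change of −0.60 (edgeR quasi-likelihood test, adjusted p under 0.05). With TMM factors of each kind of read, 1558 were lower and 601 higher. The median labelled share of a gene was 79.2% at 2 h and 87.6% at 0 h over all tested genes. Among the genes that rose in all reads it was 76.0% at 2 h and 94.1% at 0 h, and among those that fell 77.4% at 2 h and 78.8% at 0 h.

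Early genes had a much lower labelled share at 2 h. A lower share is not by itself a loss of labelled reads. From 0 h to 2 h labelled reads went from 17 to 88 (NFKBIA), 41 to 123 (CYR61) and 470 to 349 (GADD45B). GADD45B was 23.5% labelled at 2 h (349 of 1486 reads, exact 95% interval 21.4 to 25.7), against 77.2% at 0 h (73.6 to 80.5). NFKBIA had 88 labelled of 220 reads at 2 h (exact 95% interval of the share 33.5 to 46.8%) and was 100.0% at 0 h, where only 17 reads give an interval of 80.5 to 100.0, and CYR61 was 44.2% at 2 h and 95.3% at 0 h. The share stayed higher in the stress genes SLC38A2 and CEBPG. SLC38A2 was 64.1% labelled at 2 h (63.1 to 65.1) and 98.3% at 0 h (97.6 to 98.8), and CEBPG 73.2% at 2 h and 97.1% at 0 h. Labelled reads rose for both from 0 h to 2 h, from 1987 to 5580 for SLC38A2 and from 5999 to 11153 for CEBPG. The labelled share of the falling gene CHAC1 was lower at 2 h too, with 76.4% at 2 h (69.4 to 82.5) and 94.2% at 0 h (92.5 to 95.6). Of the falling glycolytic and ribosomal genes, GAPDH and RPS2 had similar shares at both times: GAPDH 44.2% at 2 h (42.6 to 45.9) and 42.6% at 0 h (41.4 to 43.9), RPS2 39.0% at 2 h (36.4 to 41.6) and 35.6% at 0 h (33.9 to 37.4). Other members differed. RPS3A was 62.1% labelled at 2 h (59.5 to 64.7) and 50.5% at 0 h (49.1 to 51.9), a gain in log2 odds of 0.67 (edgeR adjusted p = 0.000273). HK2, the glycolytic gene that was higher at 2 h in all reads (0.68), was 74.7% labelled at 2 h and 97.96% at 0 h. That is a change in log2 odds of −3.98 (edgeR adjusted p = 2.43e-11). Intervals pool the reads of 3 libraries and cover counting error only.

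**Figure D3:**
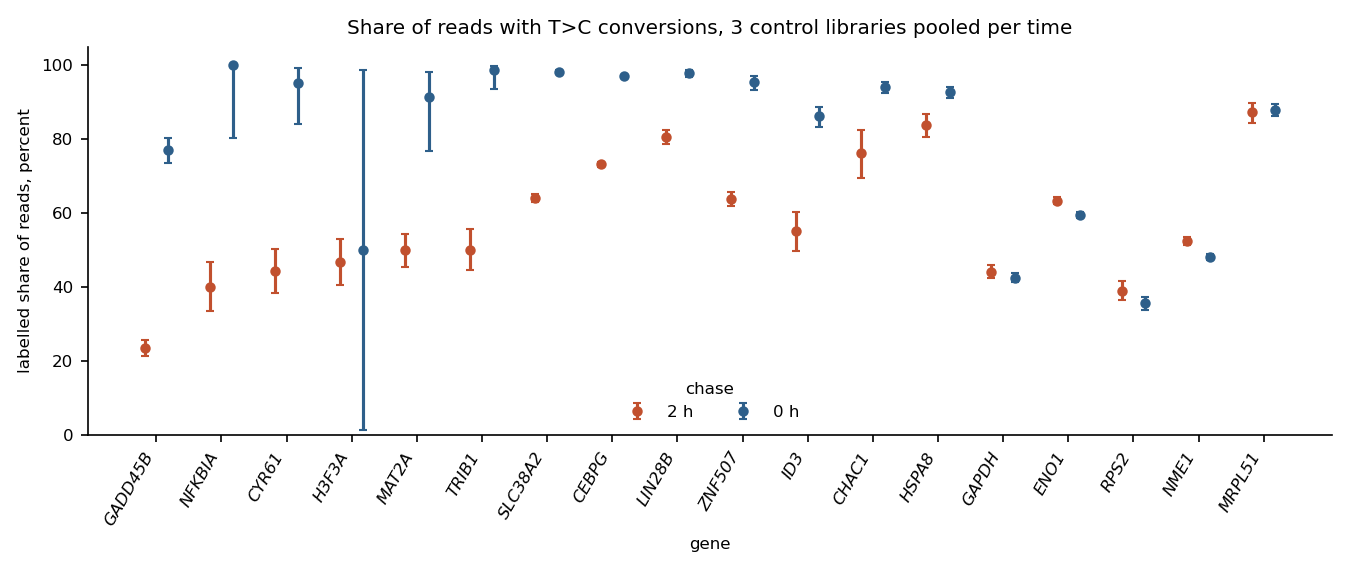
Percent of reads with T>C conversions for 18 genes, reads of 3 control libraries pooled at 2 h (left point of each pair) and at 0 h (right), with exact 95% intervals that cover counting error only. Early and stress genes such as GADD45B (23.5% and 77.2%) and SLC38A2 (64.1% and 98.3%) lie lower at 2 h, while GAPDH (44.2% and 42.6%) and MRPL51 (87.3% and 88.0%) lie close together.

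Summed over the 1355 genes called higher, labelled reads were 40414 CPM higher at 2 h than at 0 h and unlabelled reads 29065 CPM higher. Of these genes 17 (1.25%) had fewer labelled CPM at 2 h and 1353 (99.9%) more unlabelled CPM, where over all tested entries 51.1% and 64.9% did. Choosing genes for a higher sum of both favours such counts, but it does not fix how the rise divides between labelled and unlabelled reads. Over the 1101 genes called lower, the change was −128336 CPM in labelled and −73858 CPM in unlabelled reads (2 h minus 0 h). The 0 h means behind all these sums include control 0 h replicate 3, and the sums were not taken without it. Of the genes called lower, 49.9% were called again without that library. For ZBTB6, 64.3% of 1244 reads were labelled at 2 h (61.6 to 67.0) and 98.9% of 93 reads at 0 h. Whether heavily converted reads were lost from the tables was not tested.

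The lowest fitted changes in odds of label, among genes with at least 30 labelled and 30 unlabelled reads, were those of SLC16A14, a monocarboxylate transporter family gene, SIAH2, a ubiquitin ligase, MAPK6, the kinase ERK3, TPBG, a trophoblast glycoprotein, and ELF1, an ETS factor. All 5 had no unlabelled read at 0 h, among 83 to 229 reads, so the size of these odds depends on the prior count and is not a rank of label loss, while 64.7% (SIAH2) to 84.1% (TPBG) of their reads were labelled at 2 h. ELF1 also rose in all reads, with 80.5, 90.5 and 101 CPM at 2 h, against 20.6, 10.3 and 20.2 CPM at 0 h (2.43, edgeR adjusted p = 1.88e-10). The odds of label rose most for MMP24, MTIF3, MYH14, ZC4H2 and SRI. MMP24, a membrane metalloprotease, was 11.1% labelled at 2 h (7.98 to 14.9) and 1.62% at 0 h (0.597 to 3.50), and MTIF3, a mitochondrial initiation factor, 7.40% at 2 h (4.84 to 10.7) and 1.45% at 0 h (0.586 to 2.97). MMP24 and MTIF3 were almost unlabelled after 24 h of s4U, and MYH14, a myosin heavy chain, was 79.5% labelled at 2 h and 47.3% at 0 h.

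The change of a gene ran along with its labelled share late in the chase, its transcript length and base composition. Genes were ranked by the labelled percent of their reads after 6 h of chase in ZC3H7B-OE, in libraries of neither control group. This is a level and not a loss, and genes that took up little label are low in it too, such as MXD3 with 2.14% at 6 h and 2.72% at 0 h in that line. From the quintile of genes with the lowest labelled percent to the quintile with the highest, the median log2 fold change was 0.34, 0.36, 0.12, −0.11 and −0.19. In the lowest quintile 25.7% of genes were called higher and 4.33% lower, and in the highest 0.962% higher and 25.7% lower. Leaving out control 0 h replicate 3 gave 0.33, 0.38, 0.17, −0.09 and −0.22. Genes with a low labelled percent at 6 h were thus called higher at 2 h more often than genes with a high one.

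Transcript length was the next property. From the shortest quintile (296 to 1870 bases) to the longest (5529 to 34526 bases), medians were −0.49, −0.12, 0.05, 0.22 and 0.47, and −0.30, −0.06, 0.03, 0.20 and 0.38 without control 0 h replicate 3. In the shortest quintile 32.8% of genes were called lower and in the longest 32.3% higher. Across 9427 genes with an annotation, Spearman's rho of the change with length was 0.48 (0.41 without control 0 h replicate 3), and across 8319 genes rho with the labelled percent at 6 h was −0.38 (−0.44), a description over genes that share the same 6 libraries. The T share of the 3′ UTR bears on the conversion sites of reads from that region, and where reads lay in a transcript is not given. It showed a weaker slope with all libraries, −0.05, 0.02, 0.07, 0.11 and 0.21 from the T-poorest to the T-richest quintile. Without control 0 h replicate 3 the slope steepened to −0.19, −0.06, 0.09, 0.22 and 0.38, and in ZC3H7B-OE it was −0.35, −0.19, 0.03, 0.36 and 0.70. In the T-richest quintile the median deviation was −0.25 and −0.27 in control 0 h replicates 1 and 2 and 0.19 in control 0 h replicate 3. How labelled reads were aligned is not given in the sources used here, so loss of heavily converted reads at 0 h and a true change of RNA level cannot be told apart for T-rich genes.

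**Figure D4:**
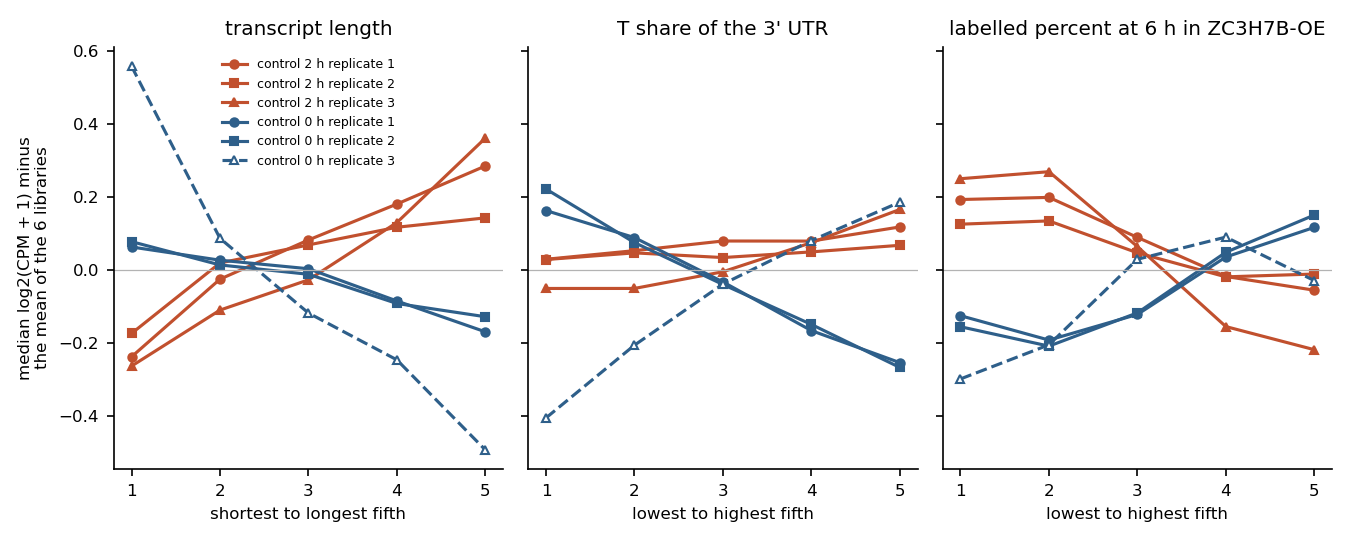
Median deviation of log2(CPM + 1) from the mean of the 6 control libraries in quintiles of genes by transcript length, T share of the 3′ UTR and labelled percent at 6 h in ZC3H7B-OE; red lines are the 2 h libraries, blue lines the 0 h libraries, dashed for control 0 h replicate 3. The 2 h libraries slope up with length and down with labelled percent, while control 0 h replicate 3 is the steepest line for length and runs against the other 2 libraries at 0 h for T share.

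Promoters were searched on both strands for the cyclic AMP response element TGACGTCA (CRE), the E-box CACGTG bound by MYC, MondoA and clock factors, and the heat shock element (HSE: GAA, any 2 bases, TTC, any 2 bases, GAA), in RefSeq promoters of GRCh38.p14 from 250 bases before to 50 after the start. Of 9728 tested entries of 1 gene, 7846 had a promoter in the table. The E-box and CRE windows are shown because the same letters stood before genes that rose and genes that fell, and the HSE window because it belongs to a chaperone described above. The motif is in capitals.
ARRDC4, E-box, higher, chr15:97960481-97960510, plus strand: aaacggcctgtgCACGTGcacgccggagcc
LATS2, E-box, higher, chr13:21061574-21061603, minus strand: gggaggcggggtCACGTGacgcccgtggaa
GAPDH, E-box, lower, chr12:6535171-6535200, plus strand: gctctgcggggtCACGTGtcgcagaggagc
CDK4, E-box, lower, chr12:57752509-57752538, minus strand: atgtcaagcggtCACGTGtgatagcaacag
SLC25A36, CRE, higher, chr3:140941708-140941737, plus strand: tgcagagtgcgTGACGTCAcgacgctcaca
RPLP2, CRE, lower, chr11:809863-809892, plus strand: tgagcgcctcgTGACGTCActctgaggcgc
HSPA8, HSE, lower, chr11:123062345-123062374, minus strand: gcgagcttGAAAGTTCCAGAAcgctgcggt
The E-box stood in 10.6% of 1104 promoters of genes that rose, 9.88% of 860 of genes that fell and 10.5% of all 7846. The CRE stood in 3.99%, 2.91% and 3.45% of the same sets, and the HSE in 0 promoters of higher genes, 3 of lower genes and 20 in all. A match is a description of letters and shows no binding.

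The same 2 h in the ZC3H7B-OE line, in separate libraries, gave 1649 entries higher (16.4%) and 639 lower (6.37%). Of the genes that rose in control, 94.1% had the same sign there and 959 of 1355 were called higher, and of those that fell 84.7% had the same sign and 222 of 1101 were called lower. The share with the same sign in both lines over all tested entries was not taken, so these percentages have no background beside them. NFKBIA was at 3.15, MAT2A at 3.55, ZBTB6 at 4.20, CHAC1 at −2.19 and GAPDH at −0.87 in ZC3H7B-OE. Of the 12 largest falls in control under the naming rule, CHAC1 alone was called lower there, and ITGAE, RPS3A and SSBP1, for example, were at −0.50, −0.56 and −0.16. The ribosomal and mitochondrial lists moved less there, with its own 0 h libraries: cytosolic ribosomal proteins had 6 lower and 5 higher with a median of −0.23, and respiratory chain genes 9 lower and 1 higher with a median of −0.36. The difference between the lines was not tested for these lists.

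Tested gene by gene, the chase response differed between the lines for 189 entries (1.88%), of which 14 were higher (0.139%) and 175 lower (1.74%) in control minus ZC3H7B-OE. GTF2A1, a subunit of TFIIA, rose by 0.96 in control and 2.61 in ZC3H7B-OE, an interaction of −1.65 (edgeR adjusted p = 0.00155). SCML2, a Polycomb protein, had 94.8, 86.2 and 103 CPM at 2 h, against 74.4, 70.4 and 116 CPM at 0 h, and was at 0.15 in control and 1.86 in ZC3H7B-OE. C5orf24, IKZF5 and MOB1A had interactions of −1.46, −1.66 and −1.13, and SLC38A2 one of −0.67 (edgeR adjusted p = 0.033). This count rests on single libraries: it was 953 without control 0 h replicate 1, 1003 without control 0 h replicate 2 and 159 without control 0 h replicate 3. Fitted on the 12 libraries of 0 and 2 h alone, edgeR called 0, with 1164 of 9030 entries at an unadjusted p under 0.05, and DESeq2 on all libraries called 596.

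The later control libraries, which share the 0 h group with no new comparison made here, show where the 2 h values stood along the chase. NFKBIA averaged 3.15, 38.9, 53.6 and 47.5 CPM at 0, 2, 4 and 6 h, and FOXO1 5.51, 26.1, 54.3 and 64.7 CPM. CEBPG averaged 1224, 2681, 5316 and 4689 CPM, so that its level at 4 h was again well above that at 2 h. CHAC1 averaged 192, 30.7, 16.8 and 15.2 CPM and ID3 155, 61.6, 47.9 and 37.0 CPM, with most of the drop in the first 2 h. GAPDH averaged 1270.3, 600.5, 605 and 510.1 CPM. H3F3A averaged 0.469, 45.8, 39.0 and 26.5 CPM, with overlap between 2 h and 4 h, where its libraries had 36.8, 46.0 and 34.2 CPM at 4 h.

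**Figure D5:**
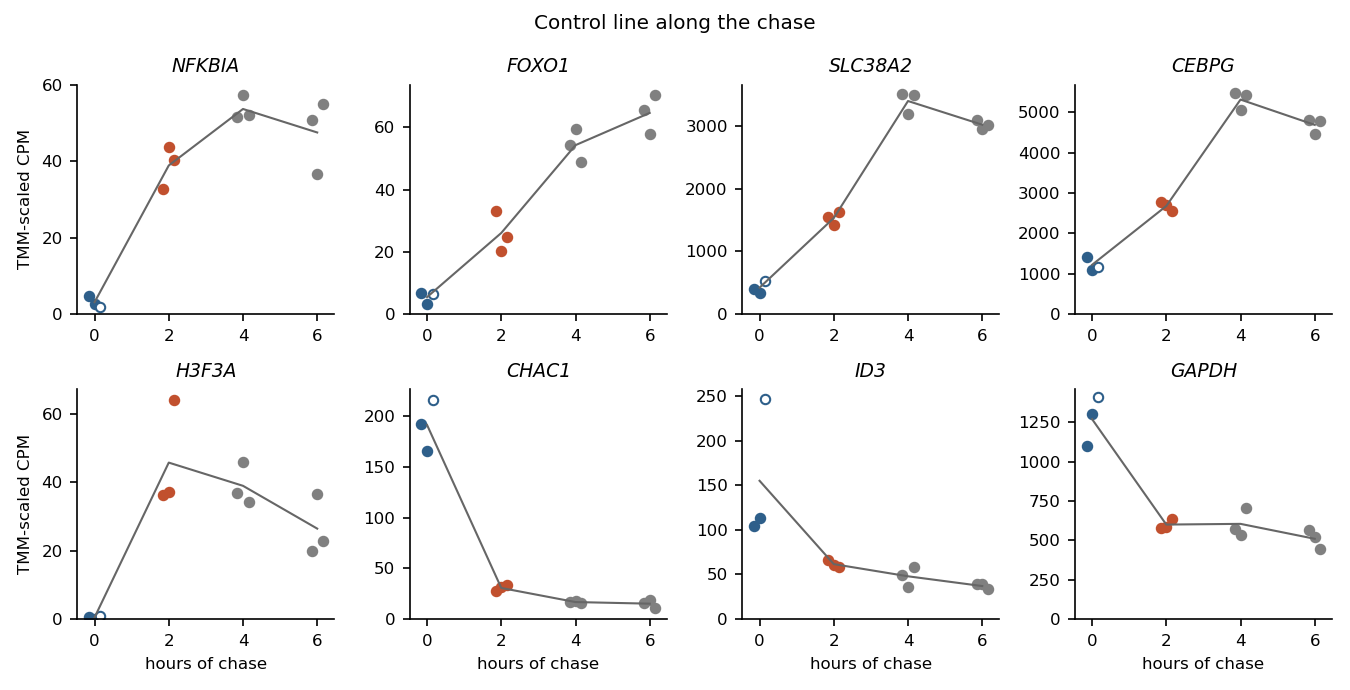
TMM-scaled CPM of 8 genes in each control library against hours of chase; the line joins the means of 3 libraries and the open point is control 0 h replicate 3. CHAC1, ID3 and GAPDH drop mainly by 2 h (CHAC1 30.7 CPM on average, against 192 at 0 h), while FOXO1, SLC38A2 and CEBPG are higher at 4 h than at 2 h.

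Marker lists of other cells moved with control 0 h replicate 3. The summed level of 5 epithelial markers was 134, 148 and 159 CPM at 2 h, against 245, 256 and 732 CPM at 0 h, almost all of it KRT10, a keratin, which lay at −1.60 (−0.83 without that library), and EPCAM, at −0.86, a call lost without it (−0.56, edgeR adjusted p = 0.189). The 6 leukocyte markers summed to 70.3, 86.2 and 97.4 CPM at 2 h, against 87.2, 111 and 274 CPM at 0 h, with PTPRC and CD3E at 0, and consisted mainly of CD68, a lysosomal protein (−0.97, and −0.29 with an edgeR adjusted p of 0.308 without that library). LIN28B, an RNA-binding protein and HEK293 marker, had 345, 319.9 and 338 CPM at 2 h, against 177, 177 and 256 CPM at 0 h (0.73, SE 0.15, edgeR adjusted p = 0.000434). The part of these markers in the falls of the ribosomal and mitochondrial genes was not tested.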

How the data were processed

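The authors deposited 2 tables of raw read counts per gene entry: every read in the first, and in the second those carrying T>C conversions. Per the labels' protocols, poly(A) RNA went into directional libraries with paired-end reads. GRCh37 and fastp (version not named) come from the submitters' processing notes. The sources used here do not name the aligner, conversion caller, counting rule or strand setting. Entries naming several genes (450 of 19692, holding 2.97% to 3.37% of reads in the 6 libraries) stayed in.

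The main test was edgeR 4.0.16 in R 4.3.3, with robust quasi-likelihood fits of group means over the 24 libraries, TMM factors, filterByExpr with a minimum count of 10, and Benjamini-Hochberg adjustment over all tested entries at 0.05. Labelled odds used labelled and unlabelled (all minus labelled) counts as 48 columns with a term per library. The interaction compared the 2 h response of control with that of ZC3H7B-OE. The labelled share per library had a two-sided exact permutation test, labelled percentages exact Clopper-Pearson 95% intervals, which cover counting error only, since PCR copies of a molecule could not be told apart. Transcript length and 3′ UTR bases came from GENCODE 29 (GRCh38), used for gene properties only, and 93.9% of tested entries matched. The scripts were tested on simulated data. Alternatives used DESeq2 1.42.0 and limma 3.58.1; tables and figures used Python 3.11.15, pandas 2.3.3, scipy 1.17.1 and matplotlib 3.10.9.

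The comparison and the 35 gene lists were chosen with earlier results of these data known, and the quintiles by length and T share were added after values were seen. Named are the 12 largest rises and 12 largest falls among called entries of 1 gene whose log2 CPM averaged at least 3 over the 24 libraries, with groups not overlapping and a call without control 0 h replicate 3, from 978 and 499 eligible; up to 4 members per list with the smallest adjusted p among those called; ZC3H7A and ZC3H7B; the 5 highest and 5 lowest called changes in labelled odds with at least 30 labelled and 30 unlabelled reads; and the 5 smallest adjusted p of the interaction. Genes named outside this rule are said to be so in the text.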

Additional observations from a re-analysis of the deposited data

Results flagged for a closer look

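For 8 genes named above the test of the difference between the lines passed at an adjusted p under 0.05 in the fit of all 24 libraries (edgeR quasi-likelihood interaction, control minus ZC3H7B-OE, log2). All 8 calls were lost on the 12 libraries of 0 and 2 h, where 0 entries were called. The values were −1.71 for SCML2, −1.65 for GTF2A1, −1.66 for IKZF5, −1.46 for C5orf24, −1.13 for MOB1A, −1.08 for AK3, −0.79 for LIN28B and −0.67 for SLC38A2. In control their changes were 0.15, 0.96, 0.50, 0.61, 0.11, −0.75, 0.73 and 1.86 in the same order, and without control 0 h replicate 3 those of IKZF5, MOB1A and AK3 were 0.79, 0.32 and −0.25. Control 0 h replicate 3 was the highest of its group in all 8, for example AK3 with 547 CPM, against 226 and 247 CPM in control 0 h replicates 1 and 2. Fitted without that library, the interaction was called for 159 of 10526 entries. The values of these 8 genes in that fit are not given here, so the part of that library in each difference is not shown.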

How the results depend on the processing

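The number of genes that changed depended most on which libraries set the spread. Fitted on the 6 control libraries alone, 439 were higher and 150 lower, and 1056 and 726 when control 0 h replicate 3 was also left out. On the 12 control libraries the counts were 972 and 872, with DESeq2 size factors 1323 and 1108, with upper-quartile scaling 1232 and 1215, with DESeq2 1439 and 1233, with limma voom 1122 and 797, with no filter 1300 and 1142, and with entries of 1 gene only 1308 and 1058. Leaving out each replicate in turn gave 858 (without control 2 h replicate 3) to 1397 higher and 645 (without control 0 h replicate 3) to 1323 lower. The replicate numbers do not pair the samples: deviations of same-numbered libraries correlated at 0.02, −0.12 and −0.09. With the numbers as a block the counts were 1315 and 1034 in all libraries, and 208 and 69 in the 6 alone. For labelled odds, 48 were higher in the 6 libraries alone, and 601 were higher and 1558 lower with TMM factors of each kind of read; leave-one-out fits gave 60 (without control 2 h replicate 1) to 116 higher and 1762 to 2223 lower. The interaction gave 0 higher and 0 lower on the 12 libraries of 0 and 2 h, 68 and 528 with DESeq2, 60 and 763 with no filter, 9 and 144 with the block, and 7 to 231 higher and 114 to 789 lower when a replicate was left out. The difference in labelled share ran from −1.94 points (without control 0 h replicate 3) to 0.0123 points, its one change of sign, without control 2 h replicate 3. List medians of p53 targets and translation factors moved to 0.04 and −0.04 without control 0 h replicate 3. Of the 162 named genes, 16 lost their call without that library, 11 on the 12 control libraries, 7 with limma voom, 18 without control 2 h replicate 3, 16 without control 2 h replicate 1, 70 in the 6 libraries alone and 104 there with the block; no gene called in the main and another setting changed sign. Beyond the construction of each fit, the cause was not tested. At this depth a gene with a few reads in a group, such as ENO4 or SEC24D, has a wide counting interval.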
